A study of Homo sapiens with 12 samples.

Results

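Gene expression in BT-549 cells with silenced MUC1 was set against that of their control cells by RNA sequencing, in which fragments sequenced from each gene's transcripts are counted. The comparison used all 6 libraries of this cell line, chosen by their labels, out of 12 libraries in the series. BT-549 is an established human line of triple-negative breast cancer (from ATCC, per the labels), a tumour class that lacks the estrogen and progesterone receptors and HER2. All 6 cultures were grown in RPMI1640 with heat-inactivated fetal bovine serum, antibiotics and insulin. Per the titles, 3 libraries came from cells with MUC1shRNA, a short hairpin RNA against MUC1-C, and 3 from cells with CshRNA, a control hairpin. The descriptions of the controls call them vector cells, so whether they carried a hairpin cannot be settled from the labels. RNA was isolated with Trizol from triplicate cultures and made into libraries with the TruSeq Stranded mRNA kit. The labels name 1 hairpin and do not say whether the triplicates were transduced separately or grown in parallel from the same cells, so the p-values reflect only how much these samples varied, and that variation may be technical. The other 6 libraries, from the triple-negative line SUM149, entered only a comparison of the responses of both lines. Per the labels SUM149 was grown in a different medium, so line and medium cannot be told apart in that comparison.

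MUC1 encodes a transmembrane mucin of epithelial cells that is cut into an outer subunit with many O-linked sugars and a smaller membrane-spanning subunit, MUC1-C. MUC1-C can also enter the nucleus, where it binds transcription factors and chromatin regulators, and it is often overexpressed in carcinomas. The series concerns its relation to NuRD, a chromatin complex that joins nucleosome remodelling with histone deacetylation. A gene's level is given as CPM, its counts scaled to a common library size with TMM factors, which depends on transcript length and so compares libraries rather than genes. Values for an arm are listed in the order of libraries 1, 2 and 3, and the labels do not say whether equal numbers belong together. A log2 fold change is MUC1shRNA against CshRNA, and a signed value in brackets after a gene is its log2 fold change, with the standard error (SE). Genes said to have risen or fallen passed an edgeR adjusted p of 0.05.

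CshRNA libraries held 16332364 to 20745835 counts and MUC1shRNA libraries 16373893 to 21248768. The mesenchymal markers VIM, ZEB1, CDH2 and FN1 were present in all 6 libraries, at 1320 to 1497 CPM for VIM and 45.1 to 59.2 CPM for ZEB1. ESR1, PGR, GATA3, FOXA1 and EPCAM did not exceed 0.8 CPM in any library and CDH1 did not exceed 1.60 CPM, whereas ERBB2, which encodes HER2, stood at 41.1 to 45.8 CPM. A principal component that held 14.3% of the variance set CshRNA 3 and MUC1shRNA 2 off from the rest, whereas the arms separated on the first component, which held 66.0%. The genes that were high in both of these libraries included growth-responsive transcription factors, named after their values were seen. ID3, an inhibitor of basic helix-loop-helix factors, stood at 9.9, 8.45 and 38.8 CPM with CshRNA and at 10.9, 52.2 and 11.4 CPM with MUC1shRNA. FOS, an immediate early factor, stood at 7.94, 11.3 and 24.3 CPM and 5.93, 16.2 and 4.99 CPM, and was lower with MUC1shRNA only in fits without MUC1shRNA 2 (-1.41, edgeR adjusted p = 0.025), without both (-0.79, edgeR adjusted p = 0.0023) or without a filter on low counts (-0.69, edgeR adjusted p = 3.4e-07). For a gene list described here whose number of rises or falls moved by over 1.5 times without both, the numbers without them are given. These 2 libraries were picked because they stood apart in these data, and leaving them out narrows the spread within each arm. A call gained without them is therefore not read as support for a change. Without a filter, ID1 and FN1 kept their log2 fold changes, but their p-values fell far below those of the filtered fit. A pass without a filter is not read as support either. Many markers of other cell types were at or near 0, but others were not, such as CD14 (up to 1.09 CPM), TEK (up to 1.56 CPM) and FAP (2.39 to 9.85 CPM). Of 17 leukocyte markers 8 had no count in any library, among them CD3D, CD3E and LYZ, and the summed level of the list was 4.77 to 6.19 CPM with CshRNA and 2.89 to 4.95 CPM with MUC1shRNA. PTPRC stood at 0.80 to 1.29 CPM with CshRNA and 0.24 to 0.27 CPM with MUC1shRNA, and CORO1A at 2.94 to 4.36 CPM and 1.71 to 2.94 CPM. Of the 3 tested members 2 fell, and 1 fell without CshRNA 1, CshRNA 3, MUC1shRNA 1 or MUC1shRNA 3. Of 12 endothelial markers 5 had no count (CDH5, TIE1, CLDN5, EMCN and ERG), with sums of 10.6 to 11.9 CPM and 18.0 to 20.1 CPM. Most of that difference was 1 gene, ROBO4, a guidance receptor of endothelial cells, at 6.39, 6.49 and 6.92 CPM with CshRNA and 13.3, 15 and 16.7 CPM with MUC1shRNA. Of 11 fibroblast markers LUM and DPT had no count and DCN stayed at or below 0.326 CPM, but the 3 fibrillar collagen genes of that list were abundant in these cells, so that its sum was 2454 to 2694 CPM with CshRNA and 3176 to 3312 CPM with MUC1shRNA.

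MUC1 (ENSG00000185499.16, GRCh38 chromosome 1, 155185824 to 155192916, minus strand) stood at 47.8, 49.5 and 50.3 CPM in the CshRNA libraries and at 3.32, 5.55 and 3.94 CPM in the MUC1shRNA libraries. Every MUC1shRNA library lay below every CshRNA library, and the log2 fold change was -3.53 ± 0.14 (SE, adjusted p = 4.2e-07 by edgeR). Of 13200 genes with enough counts to be tested, 4398 (33.3%) changed at an edgeR adjusted p below 0.05. Of these, 2216 (16.8%) were higher with MUC1shRNA and 2182 (16.5%) lower. These shares of all tested genes are the background against which the counts of gene groups are read. That background includes gene types that were seldom called. Of protein-coding genes alone 36.1% were called, and of the highest of 3 equal groups of genes by mean level 39.8%. Called shares near or below these were found for nucleic acid sensors (32.1%), G1 cell cycle genes (30.3%), glycolysis genes (33.3%), axon guidance genes (36.7%) and interferon-stimulated genes (37.2%). The number called does not by itself set these lists apart from other genes. At least 2-fold changes were found in 363 genes that rose (2.75%) and 262 that fell (1.98%). The arms did not overlap in 47.1% of the tested genes. Without MUC1shRNA 1, 2716 genes were called, and without both CshRNA 3 and MUC1shRNA 2, 5325. Against a threshold of 1.5-fold rather than 0, the test called 290 genes that rose and 209 that fell. When all 12 libraries of both lines shared 1 fit, the calls of BMP7, CALD1, DLL3, GSTM3, PCDH7 and TBX3 were lost, with edgeR adjusted p of 0.1, 0.074, 0.21, 0.08, 0.18 and 0.61.

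The largest fold rises are given for genes that averaged at least 5 CPM in 1 arm, had at least 10 counts summed in each arm and did not overlap between arms, which leaves out SORL1 (5.00), with fewer than 10 counts over the controls, and UBBP4 (5.06), whose arms overlapped. MAP3K9, a kinase upstream of JNK, stood at 0.567, 0.979 and 0.774 CPM with CshRNA and 15.5, 17.5 and 16.8 CPM with MUC1shRNA, a log2 fold change of 4.43 ± 0.16 (SE, adjusted p = 3.5e-07 by edgeR). CD200, a surface ligand that restrains myeloid cells, stood at 0.567, 0.306 and 0.339 CPM with CshRNA and 7.54, 6.15 and 8.12 CPM with MUC1shRNA (4.13, SE 0.24). ADGRL3, a latrophilin receptor that joins neurons at synapses, stood at 0.464, 0.428 and 0.726 CPM with CshRNA and 8.44, 8.76 and 8.37 CPM with MUC1shRNA (3.94, SE 0.19). In all 3 genes the control libraries lay below 1 CPM and the MUC1shRNA libraries above 6 CPM. NBEA, which encodes the vesicle-trafficking protein neurobeachin, went from 1.7, 0.918 and 1.26 CPM to 15, 17.4 and 14 CPM (3.56, SE 0.18). FOXO1, a forkhead factor held in the cytoplasm by insulin signalling, went from 1.86, 1.84 and 1.65 CPM to 18.3, 18.3 and 16.4 CPM (3.32, SE 0.12). PADI2, an enzyme that turns arginine into citrulline in proteins, went from 9.18, 9.24 and 6.58 CPM to 96.2, 68.2 and 87 CPM (3.34, SE 0.16). The 3 libraries of an arm lay close together in each of these genes compared with the distance between the arms. The other rises that the naming rule took belonged to APBB1IP, an adaptor that links RAP1 to integrin activation (0.98, 1.84 and 1.69 CPM to 12.9, 11.6 and 11.4 CPM, 3.00, SE 0.19), the kinesin KIF21A (1.29, 0.734 and 1.02 CPM to 8.39, 6.96 and 8.68 CPM, 2.96, SE 0.20) and DPYSL3, a collapsin response mediator protein of growing axons (5.98, 6.43 and 4.55 CPM to 43.3, 31.2 and 43 CPM, 2.80, SE 0.16). PCDH19, a protocadherin, stood at 3.51, 5.45 and 3.82 CPM with CshRNA and 34.1, 23.9 and 37.1 CPM with MUC1shRNA (2.91, SE 0.20). That the arms did not overlap in these genes was a condition of the naming rule.

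2 secreted proteins of the matrix combined a large fold change with a high level. TIMP3 (ENSG00000100234.11, GRCh38 chromosome 22, 32801701 to 32863043, plus strand), an inhibitor of matrix metalloproteinases that stays bound in the matrix, stood at 49.6, 52.7 and 65 CPM with CshRNA and 757, 872 and 686 CPM with MUC1shRNA, a log2 fold change of 3.79 ± 0.12 (SE, adjusted p = 1.3e-07 by edgeR). POSTN (ENSG00000133110.14, GRCh38 chromosome 13, 37562583 to 37598844, minus strand), the matricellular protein periostin, stood at 16.7, 14.1 and 13 CPM with CshRNA and 136, 138 and 134 CPM with MUC1shRNA, a log2 fold change of 3.22 ± 0.09 (SE, adjusted p = 9.3e-08 by edgeR). In both genes the lowest MUC1shRNA library was more than 8 times as high as the highest CshRNA library.

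**Figure D1:**
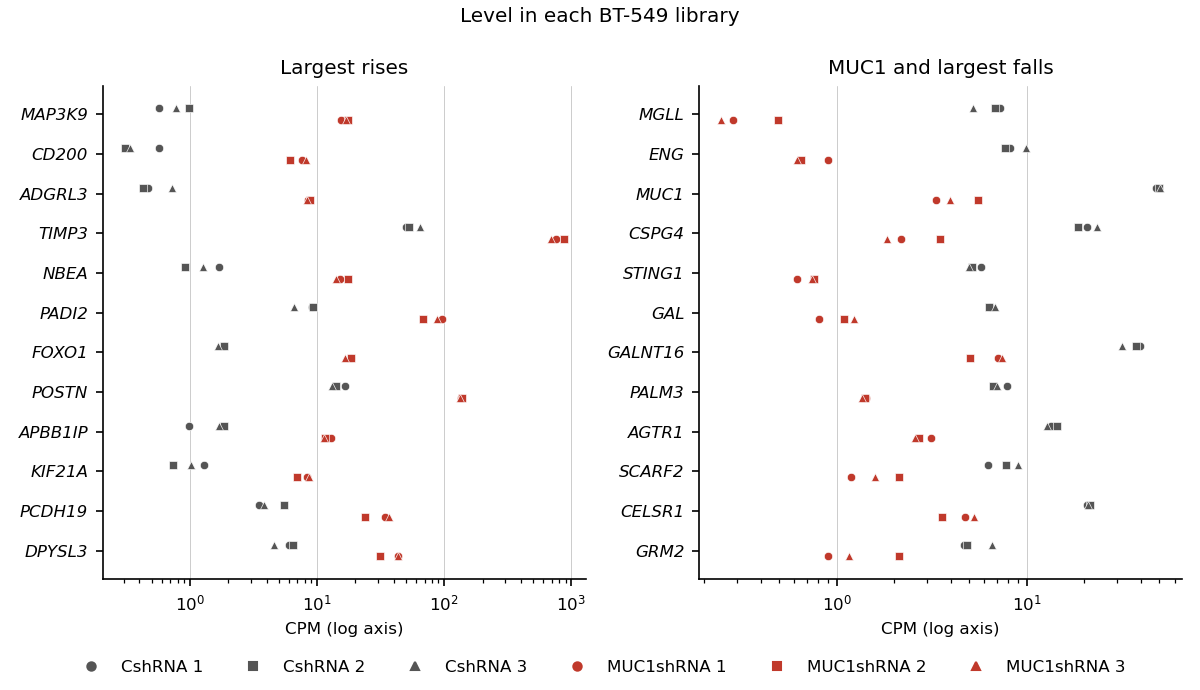
Level of each gene in CPM (horizontal log axis) in the 3 CshRNA libraries (grey) and the 3 MUC1shRNA libraries (red), for the genes with the largest rises (left) and for MUC1 and the genes with the largest falls (right), where each point is 1 library. Apart from MUC1, genes were taken only where the arms did not overlap. MAP3K9 moved from below 1 CPM to more than 15 CPM.

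The largest falls by the same limits included a lipase, membrane receptors, a proteoglycan and a glycosylation enzyme. MGLL, the lipase that cleaves monoacylglycerols, stood at 7.22, 6.79 and 5.23 CPM with CshRNA and 0.284, 0.49 and 0.246 CPM with MUC1shRNA, a log2 fold change of -4.20 ± 0.26 (SE, adjusted p = 6.2e-06 by edgeR). ENG, or endoglin, a co-receptor for TGF-beta and BMP ligands, stood at 8.2, 7.65 and 9.92 CPM with CshRNA and 0.901, 0.653 and 0.616 CPM with MUC1shRNA (-3.54, SE 0.20). CSPG4, a membrane chondroitin sulfate proteoglycan also called NG2, stood at 20.9, 18.7 and 23.4 CPM with CshRNA and 2.18, 3.48 and 1.85 CPM with MUC1shRNA (-3.06, SE 0.19). All MUC1shRNA libraries stayed below 4 CPM in these genes and all control libraries above 5 CPM. STING1, the adaptor that passes on the signal of cytosolic DNA, went from 5.72, 5.14 and 4.99 CPM to 0.616, 0.762 and 0.739 CPM (-2.90, SE 0.19). GAL, the precursor of the neuropeptide galanin, went from 6.45, 6.3 and 6.78 CPM to 0.806, 1.09 and 1.23 CPM (-2.66, SE 0.18). GALNT16, which starts mucin-type O-glycosylation by adding N-acetylgalactosamine, went from 39.4, 37.6 and 31.7 CPM to 7.11, 5.06 and 7.39 CPM (-2.47, SE 0.14). None of these falls reached 0 in any library. CELSR1, a planar cell polarity cadherin, went from 20.8, 21.4 and 21 CPM to 4.74, 3.59 and 5.29 CPM (-2.22, SE 0.13). AGTR1, the angiotensin II receptor, went from 13.4, 14.5 and 12.7 CPM to 3.13, 2.72 and 2.59 CPM (-2.25, SE 0.12). SCARF2, a scavenger receptor, went from 6.29, 7.83 and 9 CPM to 1.19, 2.12 and 1.6 CPM (-2.25, SE 0.22). The rule also took PALM3, a paralemmin of the plasma membrane (7.89, 6.67 and 7.02 CPM to 1.42, 1.41 and 1.35 CPM, -2.36, SE 0.15), and GRM2, a metabotropic glutamate receptor (4.69, 4.83 and 6.58 CPM to 0.901, 2.12 and 1.17 CPM, -1.95, SE 0.28).

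Ranked by the change in CPM, which weighs each gene by its share of the library and so favours long and abundant transcripts, the leading rise was that of SCD (ENSG00000099194.5, GRCh38 chromosome 10, 100347124 to 100364834, plus strand). SCD, the desaturase that makes oleate from stearate, stood at 1229.6, 1204 and 1164 CPM with CshRNA and 2423, 2049 and 2498 CPM with MUC1shRNA, a log2 fold change of 0.95 ± 0.07 (SE, adjusted p = 1.9e-05 by edgeR). ANPEP, the surface peptidase CD13, stood at 1042, 1064 and 999 CPM with CshRNA and 1711, 1655 and 1657 CPM with MUC1shRNA (0.69, SE 0.05). SPARC, a collagen-binding glycoprotein, stood at 1245, 1286 and 1162 CPM with CshRNA and 1962, 1891 and 1924 CPM with MUC1shRNA (0.65, SE 0.05). SLC38A2, a transporter of small neutral amino acids, stood at 605, 582 and 534 CPM with CshRNA and 991, 995 and 984 CPM with MUC1shRNA (0.79, SE 0.06). The ranking by CPM also took only genes whose arms did not overlap. The leading falls in CPM were modest as fold changes. ENO1, the glycolytic enolase, stood at 6082, 5852 and 6395 CPM with CshRNA and 4911, 5141 and 4814 CPM with MUC1shRNA (-0.30, SE 0.05). HSP90AA1, the stress-inducible cytosolic HSP90, stood at 4035, 4013 and 4368 CPM with CshRNA and 2909.9, 3113 and 3059 CPM with MUC1shRNA (-0.45, SE 0.05). FSTL1, a secreted follistatin-like glycoprotein, stood at 2696, 2724 and 2268 CPM with CshRNA and 1793, 1414 and 1801 CPM with MUC1shRNA (-0.62, SE 0.10). CTSB, the lysosomal protease cathepsin B, stood at 1969, 1915 and 1892 CPM with CshRNA and 1398, 1464 and 1406 CPM with MUC1shRNA (-0.44, SE 0.05). THY1, a glycosylphosphatidylinositol-anchored surface protein, fell furthest of them as a fold change, from 599, 656 and 559 CPM to 221, 178 and 214 CPM (-1.57, SE 0.09).

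Matrix genes moved in both directions. Of 23 tested collagen chains 7 rose and 8 fell, with a median log2 fold change of -0.04, where the median of all tested genes was -0.0053. With adjustment for GC content 7 rose and 9 fell, and the median was 0.04. The fibrillar chain COL3A1 stood at 226, 226 and 213 CPM with CshRNA and 369, 453 and 347 CPM with MUC1shRNA, a log2 fold change of 0.82 ± 0.09 (SE, adjusted p = 1.7e-04 by edgeR). COL1A2, a chain of type I collagen, stood at 1438, 1378 and 1278 CPM with CshRNA and 1802, 1676 and 1729 CPM with MUC1shRNA (0.35, SE 0.06), and COL5A2, of type V, at 484, 479 and 415 CPM with CshRNA and 676, 597 and 661 CPM with MUC1shRNA (0.49, SE 0.07). Basement membrane collagens split between chains, since COL4A5 rose (0.60, SE 0.08) and COL4A2 fell (-0.53, SE 0.05). COL15A1, a basement membrane collagen with chondroitin sulfate chains, stood at 296, 304 and 386 CPM with CshRNA and 151, 242 and 139 CPM with MUC1shRNA (-0.89, SE 0.19), and its MUC1shRNA 2 value lay nearest to the controls. COL27A1, a fibrillar collagen of cartilage, fell by more (7.89, 7.96 and 6.49 CPM to 2.51, 1.85 and 2.71 CPM, -1.66, SE 0.17).

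Of 31 matricellular and matrix glycoprotein genes 7 rose and 11 fell (median -0.11). CCN2, a connective tissue growth factor, went from 239, 229 and 267 CPM to 433, 389.9 and 419 CPM (0.75, SE 0.07), and the adhesive glycoprotein THBS1 from 1495, 1373 and 1474 CPM to 2110.3, 1660.1 and 2215 CPM (0.46, SE 0.10). Among the falls were microfibril and growth factor-binding proteins. FBN2, a fibrillin, went from 28.7, 28.5 and 28.6 CPM to 11.1, 9.74 and 10.5 CPM (-1.45, SE 0.08). FBLN1, a fibulin of elastic fibres, went from 2.68, 3 and 3 CPM to 0.19, 0.163 and 0.308 CPM (-3.70, SE 0.28). IGFBP3 and IGFBP4, which bind insulin-like growth factors, fell from 381, 428 and 326 CPM to 171, 129 and 189 CPM (-1.21, SE 0.14) and from 87.7, 86 and 89.4 CPM to 43.7, 41.9 and 39.3 CPM (-1.07, SE 0.06). Of 17 proteoglycan and hyaluronan genes 3 rose and 6 fell. The syndecans, which carry heparan sulfate on the cell surface, differed among themselves, with SDC2 higher (0.89, SE 0.09) and SDC1 (-1.05, SE 0.08) and SDC3 (-1.240, SE 0.08) lower. HAS2, a hyaluronan synthase, stood at 14.1, 14.6 and 12.5 CPM with CshRNA and 34.7, 33.2 and 31.1 CPM with MUC1shRNA (1.27, SE 0.09). Of 38 matrix proteases and inhibitors 9 rose and 12 fell. Besides TIMP3, the rises included ADAMTS12, a secreted metalloprotease (0.69, SE 0.08), and the falls included LOXL1, an elastin cross-linking oxidase (152, 159 and 158 CPM to 76, 101 and 73.4 CPM, -0.90, SE 0.11), CTSL, or cathepsin L (-0.59, SE 0.11), BMP1, the procollagen C-proteinase of the TGF-beta list (-0.68, SE 0.06), and MMP1, the interstitial collagenase (4.02, 3.86 and 5.37 CPM to 0.901, 1.52 and 0.246 CPM, -2.28, SE 0.37).

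Integrins, the receptors that bind matrix ligands, rose in 8 of 13 tested members and fell in 0 (median 0.39), against 16.8% and 16.5% of all tested genes. Without MUC1shRNA 1, the library whose omission left the fewest calls, 6 rose and 0 fell. ITGB1, the subunit shared by most matrix-binding integrins, stood at 1200.3, 1236 and 1050.2 CPM with CshRNA and 1717, 1503 and 1705 CPM with MUC1shRNA, a log2 fold change of 0.50 ± 0.08 (SE, adjusted p = 9.8e-04 by edgeR). Its fibronectin-binding partner ITGA5 stood at 183, 180.2 and 172 CPM with CshRNA and 377, 331 and 349 CPM with MUC1shRNA (0.98, SE 0.06), and the collagen-binding ITGA10 at 71.1, 68.1 and 66.3 CPM with CshRNA and 112, 137 and 105 CPM with MUC1shRNA (0.79, SE 0.09). ITGA11, also collagen-binding, was low (0.98, 1.47 and 2.18 CPM to 2.84, 4.03 and 3.63 CPM, 1.16, SE 0.27). ITGB5 was not past the test (0.10, edgeR adjusted p = 0.32), and its arms overlapped, but it passed without CshRNA 3 and MUC1shRNA 2 (0.16, edgeR adjusted p = 0.029). FN1, the ligand of ITGA5 with ITGB1, was not past it either (0.37, edgeR adjusted p = 0.06), with 1688, 1672 and 1369 CPM against 2275, 1571 and 2245 CPM. FN1 did pass, as higher, without MUC1shRNA 2 (0.53, edgeR adjusted p = 0.0015), without both that library and CshRNA 3 (0.43, edgeR adjusted p = 1.8e-06), in the fit of 12 libraries (0.37, edgeR adjusted p = 0.032), without a filter (0.37, edgeR adjusted p = 4.7e-09) and with DESeq2 (adjusted p = 0.018).

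Of 25 cadherins, protocadherins and desmosomal or catenin genes 9 rose and 5 fell. PCDH1, a protocadherin, stood at 25.1, 22.7 and 22.6 CPM with CshRNA and 104, 97.5 and 101 CPM with MUC1shRNA, a log2 fold change of 2.11 ± 0.07 (SE, adjusted p = 1.3e-07 by edgeR). PCDH9 (0.95, SE 0.08) and PCDH7 (1.15, SE 0.24) also rose. DSG2, the desmosomal cadherin of simple epithelia, went from 118, 108 and 89.8 CPM to 66.4, 50.5 and 62.3 CPM (-0.82, SE 0.12), DSC3 fell (-0.64, SE 0.15), and the giant cadherin FAT1 fell (-0.41, SE 0.05). CDH2, or N-cadherin, was not past the test (0.12, edgeR adjusted p = 0.48), with 208, 209 and 176 CPM against 233, 173 and 236 CPM, but it passed without MUC1shRNA 2 (0.25, edgeR adjusted p = 0.03) and without both CshRNA 3 and MUC1shRNA 2 (0.18, edgeR adjusted p = 0.0044). Of 24 immunoglobulin-type adhesion molecules 8 rose and 7 fell. Besides CD200, NEGR1, a neuronal growth regulator, rose (3.15, 3.55 and 2.47 CPM to 14.1, 11.5 and 14.8 CPM, 2.15, SE 0.16), as did the contactin CNTN4 (0.84, SE 0.08). ICAM1, a ligand of leukocyte integrins, stood at 55.2, 59.4 and 50.3 CPM with CshRNA and 117, 97.5 and 108 CPM with MUC1shRNA (0.97, SE 0.08), and 22% of its exon sequence overlaps a gene of the opposite strand. SIRPA, the receptor for CD47, fell from 34.2, 35.7 and 40.9 CPM to 9.06, 10.1 and 10.5 CPM (-1.91, SE 0.10). L1CAM, a neural adhesion molecule, fell from 8.51, 8.02 and 4.16 CPM to 1.71, 1.96 and 1.66 CPM (-1.94, SE 0.28), and MCAM, also known as CD146, from 6.19, 5.26 and 8.81 CPM to 1.61, 4.19 and 1.97 CPM (-1.40, SE 0.32).

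Keratins and other intermediate filament genes rose in 6 and fell in 2 of 18 cases, in 3 and 2 without MUC1shRNA 1 and in 5 and 1 without CshRNA 1. KRT8 (ENSG00000170421.12, GRCh38 chromosome 12, 52897187 to 52949954, minus strand), the type II keratin of simple epithelia, stood at 41.9, 39.8 and 41.7 CPM with CshRNA and 272, 229 and 279 CPM with MUC1shRNA, a log2 fold change of 2.66 ± 0.08 (SE, adjusted p = 1.3e-07 by edgeR). Its pairing partner KRT18 stood at 297, 257 and 250.4 CPM with CshRNA and 644, 499 and 668 CPM with MUC1shRNA (1.17, SE 0.11), and 16.3% of its exon bases lie opposite KRT8. KRT15, a keratin of basal progenitor cells, went from 1.238, 1.1 and 1.6 CPM to 6.45, 9.36 and 6.03 CPM (2.45, SE 0.23). VIM, the mesenchymal intermediate filament, was not past the test (0.03, edgeR adjusted p = 0.70), with 1409, 1458 and 1339.7 CPM against 1490.0, 1320.4 and 1497 CPM. LMNB2, a lamin of the nuclear envelope, fell (409, 380.1 and 419 CPM to 269, 285 and 271 CPM, -0.55, SE 0.06). Of 36 genes of the actin cytoskeleton 4 rose and 11 fell. FSCN1, which bundles actin in filopodia, stood at 144, 138 and 148 CPM with CshRNA and 75.3, 72.9 and 79.7 CPM with MUC1shRNA (-0.92, SE 0.06). TAGLN2, a transgelin (-0.55, SE 0.05), the nonmuscle myosin heavy chain MYH10 (274, 253 and 267 CPM to 179, 157 and 175 CPM, -0.63, SE 0.06) and myosin light chain kinase, MYLK (18.2, 17.1 and 14 CPM to 9.15, 5.66 and 7.82 CPM, -1.12, SE 0.17), fell too. CALD1, or caldesmon, was among the 4 that rose (0.46, SE 0.11). The number that rose moved with the libraries used: 2 rose without CshRNA 1 or without CshRNA 2, 1 without MUC1shRNA 1 or without MUC1shRNA 3, and 8 without both CshRNA 3 and MUC1shRNA 2, while 10 to 12 fell in these fits. With adjustment for GC content 8 rose and 10 fell, and the median went from -0.09 to 0.0045.

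**Figure D2:**
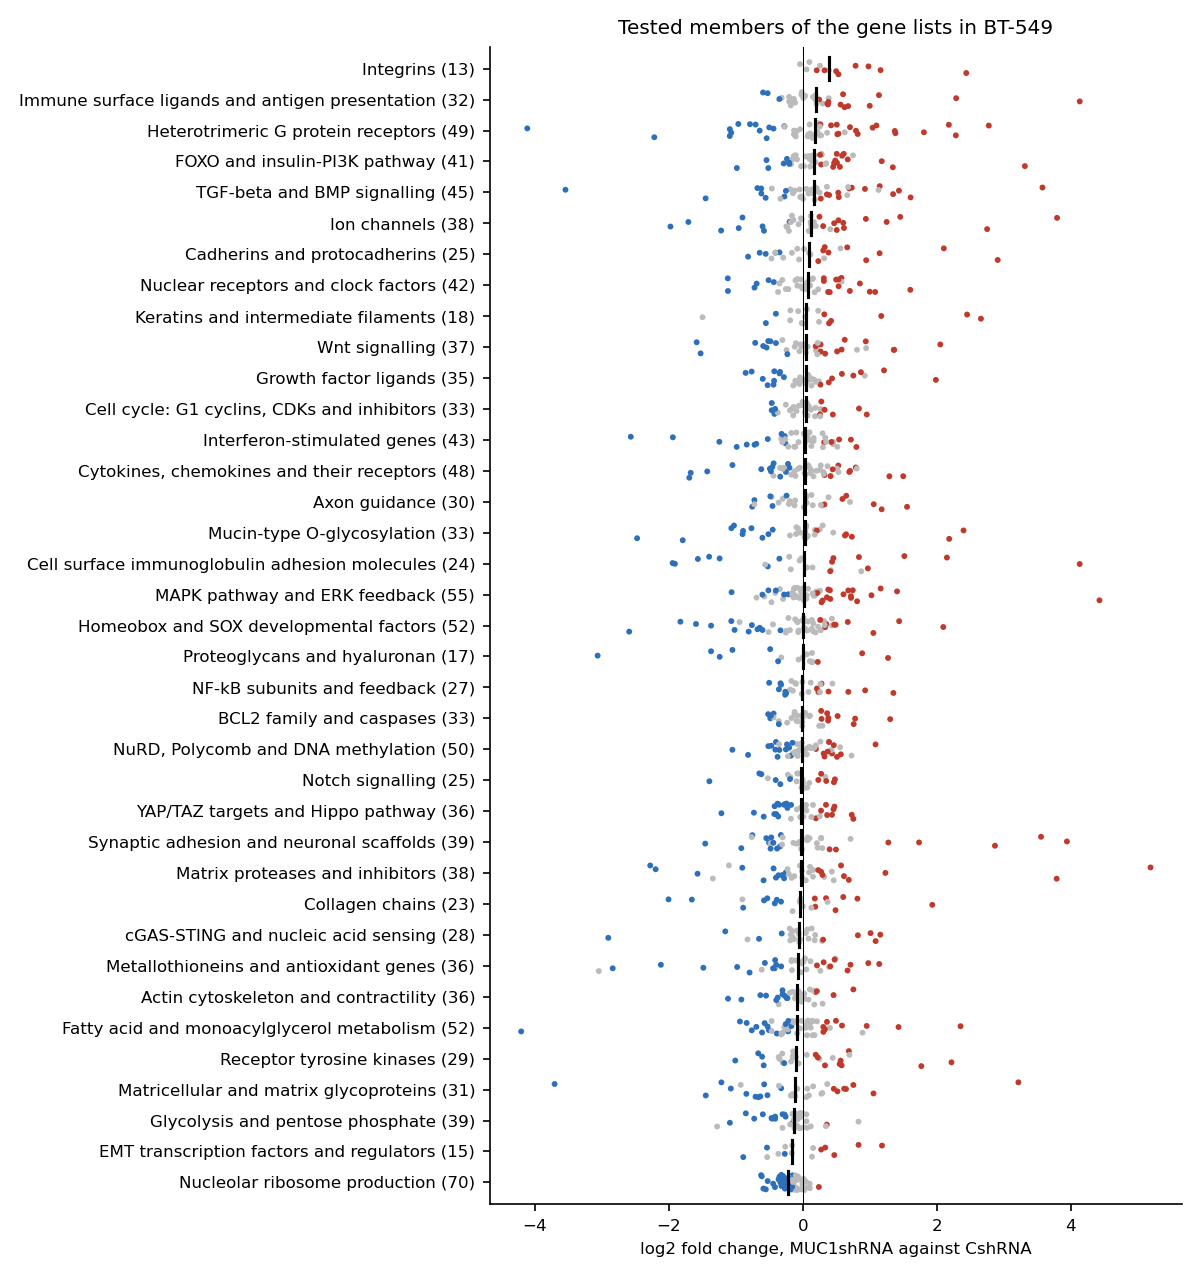
Gene lists with at least 13 tested members, identity markers left out (vertical axis, number tested in brackets), and the log2 fold change of every such member with MUC1shRNA over CshRNA (horizontal axis), coloured red where the gene rose, blue where it fell and grey otherwise, with the median as a black bar. Integrins have the highest median, 0.39, and genes of nucleolar ribosome production the lowest, -0.21.

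Regulators of epithelial-mesenchymal transition did not move as 1 group, with 5 that rose and 3 that fell of 15, and 5 and 5 without CshRNA 3 and MUC1shRNA 2. ZEB2, a repressor of epithelial genes, stood at 50.4, 54.7 and 46.3 CPM with CshRNA and 27.5, 27.4 and 26.8 CPM with MUC1shRNA, a log2 fold change of -0.89 ± 0.07 (SE, adjusted p = 3.1e-05 by edgeR). Its paralog ZEB1 was not past the test (-0.16, edgeR adjusted p = 0.14), with 53, 59.2 and 52.3 CPM against 51.1, 45.1 and 51.3 CPM, but it passed with GC offsets (-0.27, edgeR adjusted p = 0.0066). PRRX1, a mesenchymal homeobox factor, went from 30.4, 33 and 24.5 CPM to 57.8, 50.8 and 47.3 CPM (0.83, SE 0.11). ELF3, an epithelial ETS factor, rose from 2.78, 2.51 and 1.74 CPM to 6.07, 4.84 and 4.92 CPM (1.18, SE 0.19), and SOX9 rose (0.47, SE 0.10). FOXC1, a forkhead factor of basal-like tumours, fell (-0.27, SE 0.05).

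In the TGF-beta and BMP pathway 13 of 45 tested members rose and 8 fell (median 0.17), and 20 and 10 without CshRNA 3 and MUC1shRNA 2. Ligands led the rises. INHBA, the subunit of activin A, stood at 85.6, 86.2 and 56.9 CPM with CshRNA and 221, 155 and 205 CPM with MUC1shRNA, a log2 fold change of 1.35 ± 0.17 (SE, adjusted p = 3.3e-04 by edgeR). GDF15, a stress-induced hormone of the family, stood at 28.8, 23.2 and 25.7 CPM with CshRNA and 69, 69.6 and 71.8 CPM with MUC1shRNA (1.44, SE 0.08). BMP2 went from 6.6, 7.77 and 6.68 CPM to 15.5, 14.7 and 16.4 CPM (1.15, SE 0.10) and BMP7 from 6.91, 6.55 and 7.6 CPM to 20.4, 23.4 and 20.6 CPM (1.61, SE 0.10). TGFB1 differed from these, with 82.2, 68.8 and 86 CPM against 49, 55.3 and 49.98 CPM (-0.62, SE 0.09). Besides ENG, the BMP antagonist CHRDL1 fell, from 75.6, 78.3 and 76.4 CPM to 28.2, 30.2 and 25.7 CPM (-1.45, SE 0.07). The BMP target ID1 was not past the test (0.68, edgeR adjusted p = 0.17), and was high in the 2 libraries that stood apart (72.6, 77.7 and 160.2 CPM against 117, 261 and 120.1 CPM). It passed without both of them (0.66, edgeR adjusted p = 2.4e-07), without CshRNA 3 alone (1.15, edgeR adjusted p = 0.018) and without a filter (0.68, edgeR adjusted p = 3.5e-20). The last p-value stands on overlapping arms at the same log2 fold change, and does not measure how much these libraries varied.

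Of 37 Wnt signalling genes 11 rose and 9 fell, against 9 and 5 without CshRNA 1. TCF7, a nuclear partner of beta-catenin, stood at 16.3, 14.9 and 18 CPM with CshRNA and 40.3, 46.2 and 39.8 CPM with MUC1shRNA, a log2 fold change of 1.36 ± 0.09 (SE, adjusted p = 9.5e-06 by edgeR). DKK1, a secreted inhibitor, stood at 114, 118 and 114 CPM with CshRNA and 169.9, 183 and 182 CPM with MUC1shRNA (0.63, SE 0.05). SFRP2, another secreted modulator, stood at 109, 104 and 170.2 CPM with CshRNA and 263, 475 and 251 CPM with MUC1shRNA (1.36, SE 0.25), where CshRNA 3 and MUC1shRNA 2 were the highest libraries of their arms. ROR1, a Wnt5a receptor, rose (0.58, SE 0.09). The ligand WNT10B fell from 5.47, 6.18 and 6.83 CPM to 2.09, 2.12 and 2.22 CPM (-1.52, SE 0.15) and the receptor FZD9 from 2.53, 2.02 and 1.94 CPM to 0.759, 0.707 and 0.677 CPM (-1.58, SE 0.23). Of 25 Notch pathway genes 5 rose and 6 fell, and 3 and 5 without MUC1shRNA 1 or without MUC1shRNA 3. The receptors NOTCH1 and NOTCH3 went from 27.6, 26.6 and 28.995 CPM to 11.9, 11 and 8.62 CPM (-1.39, SE 0.11) and from 26.6, 23.9 and 22.3 CPM to 14.9, 16.9 and 14.7 CPM (-0.65, SE 0.10), and the ligand DLL3 fell (-0.62, SE 0.14). The pathway's DNA-binding factor RBPJ rose (0.35, SE 0.08), as did NCSTN, a subunit of the gamma-secretase that cuts the receptors (157, 163 and 153 CPM to 222, 212 and 218 CPM, 0.46, SE 0.05), and the coactivator MAML1 (0.48, SE 0.06).

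Receptor tyrosine kinases rose in 9 and fell in 5 of 29. EPHA3, an ephrin receptor, went from 2.48, 1.71 and 1.5 CPM to 9.43, 7.83 and 9.29 CPM, a log2 fold change of 2.22 ± 0.19 (SE, adjusted p = 3.0e-05 by edgeR). MST1R, the receptor of macrophage-stimulating protein, went from 0.722, 1.84 and 1.6 CPM to 3.51, 5.71 and 4.92 CPM (1.77, SE 0.30). AXL, a receptor of GAS6 tied to mesenchymal states, stood at 467, 429.7 and 412 CPM with CshRNA and 284, 274 and 316 CPM with MUC1shRNA (-0.58, SE 0.07). EPHB4 (106, 101 and 107 CPM to 70.6, 67.5 and 67.3 CPM, -0.61, SE 0.05), FGFR2 (-0.66, SE 0.12) and the neurotrophin receptor NTRK3 (-1.01, SE 0.15) fell. EGFR was not past the test (0.06, edgeR adjusted p = 0.60), with 597, 599 and 529 CPM against 626, 532 and 638 CPM. Of 35 growth factor ligands 8 rose and 10 fell, and 7 and 6 without CshRNA 1. PDGFB went from 3.71, 3.37 and 3.39 CPM to 15, 11.9 and 14.6 CPM (1.99, SE 0.13) and PDGFC rose (0.75, SE 0.11), FGF2 went from 238, 235 and 176 CPM to 356, 272 and 345 CPM (0.58, SE 0.13), and the neurotrophic ligand GDNF fell (-0.76, SE 0.12).

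In the FOXO and insulin-PI3K pathway 15 of 41 members rose and 7 fell (median 0.17), against 13 and 4 without MUC1shRNA 1 and 15 and 3 without MUC1shRNA 3. SGK1, a kinase downstream of PI3K, stood at 62.2, 59.98 and 62.5 CPM with CshRNA and 147, 123 and 149 CPM with MUC1shRNA, a log2 fold change of 1.18 ± 0.08 (SE, adjusted p = 7.6e-06 by edgeR). INPP4B, a phosphatase that acts on lipid products of PI3K, stood at 22, 24.5 and 19.5 CPM with CshRNA and 60.7, 46 and 60.2 CPM with MUC1shRNA (1.34, SE 0.12). PIK3CD, a catalytic PI3K subunit, fell from 38.7, 35.5 and 30.6 CPM to 18.1, 15.3 and 19.6 CPM (-0.98, SE 0.11), the AKT phosphatase PHLPP1 fell (-0.51, SE 0.07), and so did TSC1, an inhibitor of mTORC1 signalling (-0.54, SE 0.07). MAPK pathway genes rose in 17 and fell in 6 of 55 cases, and in 12 and 3 without MUC1shRNA 1. Besides MAP3K9, the ETS factor ETV1 went from 11.1, 12 and 13.1 CPM to 25.8, 29.6 and 25.6 CPM (1.16, SE 0.10), MAP3K5, a stress-activated kinase, from 11.4, 8.87 and 12.5 CPM to 20.6, 25 and 21.5 CPM (1.02, SE 0.13), and RASA1, a RAS GTPase-activating protein, from 60.5, 59.9 and 55.4 CPM to 109.995, 91.5 and 107 CPM (0.81, SE 0.08). MAP3K8 (-1.06, SE 0.19) and MAPK9, or JNK2 (-0.40, SE 0.07), were among those that fell. Hippo pathway and YAP/TAZ target genes rose in 9 and fell in 14 of 36 cases, and without CshRNA 1 in 8 and 7. CCN2 and the kinase LATS2 (0.46, SE 0.07) rose, while IGFBP3, AXL and DLC1 (-0.42, SE 0.09) fell, and CCN1, another target, was not past the test (0.05, edgeR adjusted p = 0.62) except without CshRNA 3 and MUC1shRNA 2 (0.16, edgeR adjusted p = 0.012).

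Immune genes of the cell surface and of antigen presentation rose in 12 and fell in 3 of 32 (median 0.19), and in 13 and 7 without CshRNA 3 and MUC1shRNA 2. MICA and MICB, stress ligands of the killer cell receptor NKG2D, went from 6.03, 7.22 and 7.99 CPM to 16, 14.7 and 16 CPM (1.14, SE 0.12) and from 3.61, 2.94 and 3.63 CPM to 7.49, 5.88 and 7.08 CPM (1.00, SE 0.15). CD59, which blocks the complement pore, stood at 256, 266 and 247 CPM with CshRNA and 413, 404 and 411 CPM with MUC1shRNA (0.68, SE 0.05). CD70, a ligand of the TNF family, stood at 68.5, 61.9 and 78.7 CPM with CshRNA and 43.9, 48.3 and 46.7 CPM with MUC1shRNA (-0.59, SE 0.09), and PVR, a ligand of TIGIT, fell (-0.35, SE 0.07). The checkpoint ligand PD-L1, encoded by CD274, was low and not past the test (3.2, 3.06 and 2.28 CPM against 3.98, 2.45 and 4 CPM, 0.30, edgeR adjusted p = 0.34). Nucleic acid sensors split, with 5 that rose and 4 that fell of 28, 3 and 2 without either CshRNA 2 or MUC1shRNA 1, 5 and 2 without CshRNA 1 and 3 and 4 without MUC1shRNA 3. STING1 and IFI16, a DNA sensor (118, 117 and 109.5 CPM to 66.2, 81.9 and 70.5 CPM, -0.65, SE 0.08), fell, while the RNA sensors TLR3 (2.84, 3.79 and 2.86 CPM to 6.26, 7.02 and 6.77 CPM, 1.09, SE 0.15) and IFIH1, or MDA5 (5.36, 6.12 and 3.24 CPM to 11, 7.34 and 11.1 CPM, 1.01, SE 0.23), rose. Interferon-stimulated genes rose in 5 and fell in 11 of 43 cases, in 3 and 7 without either MUC1shRNA 1 or MUC1shRNA 3, in 5 and 7 without CshRNA 1, in 3 and 9 without CshRNA 2 and in 3 and 14 without CshRNA 3. OAS3, a sensor of double-stranded RNA, fell (49.4, 48.3 and 33.6 CPM to 29.8, 21.7 and 28 CPM, -0.72, SE 0.16), while UBE2L6, the conjugating enzyme of ISG15 (26.7, 24.1 and 20.7 CPM to 44.4, 37.8 and 42.2 CPM, 0.80, SE 0.10), and GBP3 (0.72, SE 0.11) rose.

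Cytokines, chemokines and their receptors rose in 9 and fell in 13 of 48. The neutrophil chemokines CXCL1 and CXCL8 went from 411, 506 and 374 CPM to 764, 652 and 689 CPM (0.70, SE 0.10) and from 122, 111 and 114 CPM to 173, 172 and 157 CPM (0.53, SE 0.06), whereas the monocyte chemokine CCL2 went from 46.7, 57.5 and 42.1 CPM to 34.9, 27.6 and 32.4 CPM (-0.62, SE 0.12). The receptors IL7R, from 65.1, 65.3 and 78.5 CPM to 19.9, 27 and 18.6 CPM, and IL4R, from 30.1, 29.4 and 30.3 CPM to 11, 10.1 and 12.3 CPM, had log2 fold changes of -1.67 (SE 0.13) and -1.43 (SE 0.09). NF-kB subunits and feedback genes rose in 7 and fell in 7 of 27, in 4 and 4 without CshRNA 1 and in 4 and 2 without MUC1shRNA 1. BIRC2, a ubiquitin ligase of the pathway, stood at 76.7, 78.3 and 67.4 CPM with CshRNA and 117, 124 and 116 CPM with MUC1shRNA (0.68, SE 0.07), and TNFAIP2 at 35.4, 31.3 and 33.6 CPM with CshRNA and 66.5, 67.8 and 56.9 CPM with MUC1shRNA (0.93, SE 0.08). The feedback inhibitor TNFAIP3 was not past the test (-0.10, edgeR adjusted p = 0.52).

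Genes best known from neurons moved both ways. Of 39 synaptic adhesion and scaffold genes 7 rose and 11 fell. GRIN2A, a glutamate receptor subunit, went from 7.68, 9.73 and 8.08 CPM to 21.2, 21.2 and 19 CPM, a log2 fold change of 1.28 ± 0.11 (SE, adjusted p = 3.2e-05 by edgeR). GABBR2, a GABA-B receptor subunit, went from 69.5, 68 and 69.2 CPM to 26.2, 24.5 and 24.6 CPM (-1.46, SE 0.06). Of 30 axon guidance genes 6 rose and 5 fell (7 and 8 without CshRNA 3 and MUC1shRNA 2), and the paralogous ligands SLIT3 and SLIT2 stood at 44.8, 47.7 and 42.4 CPM with CshRNA and 71.6, 59 and 72.6 CPM with MUC1shRNA (0.59, SE 0.09) and at 112, 109.9 and 109 CPM with CshRNA and 72.7, 61.1 and 67 CPM with MUC1shRNA (-0.72, SE 0.07). Their receptor ROBO1 fell (276, 271 and 279 CPM to 201, 203 and 199.6 CPM, -0.45, SE 0.05), and so did the semaphorin receptors PLXNA1 (-0.48, SE 0.07) and PLXNA3 (-0.75, SE 0.08). Of 38 ion channels 12 rose and 8 fell. KCNS3, a modulatory potassium channel subunit, went from 1.39, 1.35 and 1.5 CPM to 10.5, 9.47 and 8.68 CPM (2.75, SE 0.15). SCNN1A, a subunit of the epithelial sodium channel, rose (0.94, SE 0.14), and CACNA2D1, a calcium channel subunit, fell (-0.60, SE 0.14). Receptors coupled to heterotrimeric G proteins, adhesion receptors included, rose in 16 and fell in 13 of 49, and in 12 and 7 without MUC1shRNA 1. GPR37 went from 0.928, 0.918 and 1.06 CPM to 4.93, 5.28 and 4.06 CPM (2.28, SE 0.19), the natriuretic peptide clearance receptor NPR3 of the same list from 3.87, 4.47 and 3.49 CPM to 15.2, 12.1 and 13.8 CPM (1.81, SE 0.13), and the laminin and collagen receptor ADGRG6 from 20.9, 20.1 and 11.5 CPM to 52, 31.3 and 52.9 CPM (1.38, SE 0.24). GPR161, a ciliary inhibitor of hedgehog signalling, went from 40.7, 37.1 and 39.4 CPM to 19.6, 16.1 and 19.4 CPM (-1.09, SE 0.09).

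Developmental transcription factors of the homeobox, T-box and SOX families rose in 9 and fell in 12 of 52, and in 5 and 12 without MUC1shRNA 1. SOX11 went from 2.37, 2.39 and 2.03 CPM to 10.4, 8.49 and 10.1 CPM, a log2 fold change of 2.10 ± 0.15 (SE, adjusted p = 1.0e-05 by edgeR). TBX3 stood at 104, 97.6 and 110.1 CPM with CshRNA and 146, 151 and 141 CPM with MUC1shRNA (0.49, SE 0.06). MSX1, a homeobox repressor, went from 2.27, 1.59 and 2.37 CPM to 0.19, 0.381 and 0.492 CPM (-2.59, SE 0.33). Nuclear receptors and clock factors rose in 13 and fell in 6 of 42, and in 9 and 3 without MUC1shRNA 1. BMAL1, the activator of the circadian clock, stood at 18.7, 20.7 and 21 CPM with CshRNA and 32.8, 32.8 and 32.7 CPM with MUC1shRNA (0.70, SE 0.07), and its repressor BHLHE41 went from 3.92, 2.51 and 1.79 CPM to 8.96, 7.89 and 8.12 CPM (1.61, SE 0.23). The orphan receptor NR2F1, also known as COUP-TF1, went from 9.08, 9.73 and 13.4 CPM to 21.8, 24.6 and 21.9 CPM (1.08, SE 0.14), the vitamin D receptor VDR rose (0.58, SE 0.07), and the thyroid hormone receptor THRA fell from 11.1, 9.85 and 11.2 CPM to 4.93, 4.52 and 5.42 CPM (-1.12, SE 0.12).

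In the NuRD, Polycomb and DNA methylation list 11 of 50 members rose and 13 fell, against 7 and 8 without CshRNA 1 and 9 and 6 without MUC1shRNA 1. MBD3, the NuRD subunit with a methyl-CpG-binding fold, stood at 56.6, 46.3 and 59.2 CPM with CshRNA and 36.2, 42.5 and 35 CPM with MUC1shRNA, a log2 fold change of -0.51 ± 0.10 (SE, adjusted p = 0.0049 by edgeR). MTA1 stood at 68.9, 66 and 74.7 CPM with CshRNA and 67.4, 64.3 and 65.4 CPM with MUC1shRNA and was not past the test (-0.09, edgeR adjusted p = 0.30). The de novo DNA methyltransferases DNMT3A and DNMT3B went from 17, 17.3 and 15.4 CPM to 12.1, 12.8 and 10.9 CPM (-0.47, SE 0.10) and from 8.35, 9.3 and 8.76 CPM to 4.69, 3.86 and 4.12 CPM (-1.05, SE 0.12). The enzymes that oxidise methylcytosine differed, since TET1 fell (4.28, 3.49 and 3.82 CPM to 1.99, 2.18 and 2.46 CPM, -0.82, SE 0.17) and TET2 rose (18.1, 15.9 and 16.1 CPM to 24.9, 24.5 and 21.8 CPM, 0.51, SE 0.09). Of the Polycomb genes, JARID2 (38.3, 38.9 and 34.8 CPM to 55.3, 52.3 and 58.4 CPM, 0.57, SE 0.07) and EZH1 (0.44, SE 0.10) rose.

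Genes of ribosome production in the nucleolus fell in 42 of 70 tested members and rose in 1, with a median of -0.21, against 16.5% and 16.8% of all tested genes. In the leave-one-out fit with the fewest calls, without MUC1shRNA 3, 29 fell and 1 rose, and with adjustment for GC content 47 fell and 2 rose. The number that rose moved with the libraries used: 0 rose without MUC1shRNA 1, 2 without CshRNA 3 and 3 without both CshRNA 3 and MUC1shRNA 2. The falls were small, since none reached 2-fold. RRP9, a protein of the U3 small nucleolar particle, stood at 56.1, 55 and 65.2 CPM with CshRNA and 37.1, 40.2 and 37.4 CPM with MUC1shRNA, a log2 fold change of -0.62 ± 0.08 (SE, adjusted p = 3.9e-04 by edgeR). NOL6, part of the small-subunit processome, stood at 183, 160.3 and 179.6 CPM with CshRNA and 112, 117 and 119 CPM with MUC1shRNA (-0.59, SE 0.06), and DHX37, the helicase that releases U3, at 52.7, 47.1 and 50.2 CPM with CshRNA and 33.9, 36 and 32.4 CPM with MUC1shRNA (-0.55, SE 0.07). BOP1, which matures the large subunit, stood at 152, 129 and 156 CPM with CshRNA and 90.8, 105 and 90.5 CPM with MUC1shRNA (-0.61, SE 0.08), and NCL, the abundant nucleolar protein nucleolin, at 1392, 1403 and 1501 CPM with CshRNA and 1187, 1217 and 1203 CPM with MUC1shRNA (-0.25, SE 0.05). RPS2, a protein of the small subunit itself, stood at 1362, 1266 and 1581 CPM with CshRNA and 997, 1183 and 959.9 CPM with MUC1shRNA (-0.42, SE 0.10). The highest MUC1shRNA library was below the lowest control library in each of these 6 genes, and the arms did not overlap in 47.1% of all tested genes. RPS2 was named after its values were seen and does not stand for other ribosomal protein genes.

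Promoters of ribosome production genes often hold the E-box CACGTG, a palindromic sequence bound by MYC with MAX and by other basic helix-loop-helix factors. The promoters of RRP9 and NOL6 are shown with this motif in capitals because both genes were among those that fell most in the list. They run from 250 bases before to 50 bases after the gene's start, 5′ to 3′ on the gene's strand, and come from RefSeq on GRCh38.p14 (RRP9 minus strand, chromosome 3, 51941855 to 51942154, and NOL6 minus strand, chromosome 9, 33473875 to 33474174).
RRP9: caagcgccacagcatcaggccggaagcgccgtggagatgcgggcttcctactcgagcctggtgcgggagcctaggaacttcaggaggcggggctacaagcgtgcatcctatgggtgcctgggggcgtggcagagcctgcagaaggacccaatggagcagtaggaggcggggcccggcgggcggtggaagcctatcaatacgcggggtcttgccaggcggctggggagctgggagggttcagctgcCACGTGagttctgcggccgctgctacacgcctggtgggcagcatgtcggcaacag
NOL6: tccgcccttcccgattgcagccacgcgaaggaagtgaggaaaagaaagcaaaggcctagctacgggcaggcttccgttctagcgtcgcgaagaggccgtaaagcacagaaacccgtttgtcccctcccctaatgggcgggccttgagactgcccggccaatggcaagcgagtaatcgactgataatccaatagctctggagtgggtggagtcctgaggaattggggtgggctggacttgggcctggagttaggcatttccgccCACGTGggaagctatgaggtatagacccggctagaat
Of 27305 promoters of this length, 1 per gene symbol, 7.43% held CACGTG. Of the 59 tested members of the list with a promoter in that table, 23 held it (39%), 17 of 35 that fell and 6 of 24 that did not. A match describes these letters only and does not show that any factor was bound.

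Of 39 tested genes of glycolysis and the pentose phosphate pathway 1 rose (2.56%) and 12 fell (30.8%), with a median of -0.12, against 16.8% and 16.5% of all tested genes. The share called in either direction, 33.3%, was that of all tested genes. In the list 2 rose without CshRNA 3, without MUC1shRNA 3 or without both CshRNA 3 and MUC1shRNA 2. With adjustment for GC content 4 rose and 12 fell, with a median of -0.07. PGAM1, a phosphoglycerate mutase, stood at 129, 139 and 134 CPM with CshRNA and 64.9, 61.8 and 62.7 CPM with MUC1shRNA, a log2 fold change of -1.09 ± 0.05 (SE, adjusted p = 1.5e-06 by edgeR). ENO2, the neuronal enolase, stood at 82.3, 78.3 and 78 CPM with CshRNA and 48.9, 48.3 and 47.1 CPM with MUC1shRNA (-0.73, SE 0.06). PFKFB3, which makes the activator of phosphofructokinase, fell from 103, 95.8 and 127 CPM to 61.7, 86.9 and 66.7 CPM (-0.60, SE 0.13), while its paralog PFKFB2 was the member that rose (0.36, SE 0.09). LDHA and PKM were not past the test (-0.09 and -0.15, edgeR adjusted p = 0.22 and 0.068), but PKM passed without MUC1shRNA 2 (-0.19, edgeR adjusted p = 0.031), without that library and CshRNA 3 (-0.16, edgeR adjusted p = 0.0091) and without a filter (-0.15, edgeR adjusted p = 0.047). Fatty acid and monoacylglycerol genes rose in 9 and fell in 14 of 52 cases, in 6 and 8 without MUC1shRNA 1 and in 15 and 14 without CshRNA 3 and MUC1shRNA 2. Besides SCD and MGLL, the elongases differed in direction, with ELOVL5 at 252, 249 and 239.998 CPM with CshRNA and 409.9, 329 and 372 CPM with MUC1shRNA (0.59, SE 0.08) and ELOVL2 at 45.3, 45.7 and 39.6 CPM with CshRNA and 28.8, 25.4 and 26.5 CPM with MUC1shRNA (-0.69, SE 0.08). PTGIS, prostacyclin synthase, went from 19.9, 18.9 and 26 CPM to 100.04, 135 and 97.3 CPM (2.35, SE 0.15). Of the acyltransferases that build glycerolipids, GPAT3 rose (1.238, 1.9 and 1.55 CPM to 3.75, 4.46 and 4.37 CPM, 1.43, SE 0.19) and AGPAT2 fell (50.3, 46.2 and 52.6 CPM to 23.5, 28.1 and 26.4 CPM, -0.94, SE 0.08).

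Metallothioneins, small cysteine-rich proteins that bind zinc and copper, rose in the 3 members with a mean above 2 CPM. MT2A (ENSG00000125148.6, GRCh38 chromosome 16, 56608199 to 56609497, plus strand) stood at 597, 549 and 476 CPM with CshRNA and 918, 813 and 847 CPM with MUC1shRNA, a log2 fold change of 0.67 ± 0.08 (SE, adjusted p = 3.4e-04 by edgeR). MT1E stood at 42.8, 44.2 and 28.5 CPM with CshRNA and 98.4, 69.1 and 86.2 CPM with MUC1shRNA (1.14, SE 0.17) and MT1X at 40.4, 41.4 and 34.1 CPM with CshRNA and 76.5, 79.3 and 72.2 CPM with MUC1shRNA (0.98, SE 0.08). The arms did not overlap in any of the 3, as in 47.1% of all tested genes. MT1M (0.49, edgeR adjusted p = 0.24) and MT1F (0.39, edgeR adjusted p = 0.54) were near 1 CPM or lower and not past the test, and MT1A and MT1G were too low to test. These genes are close copies, and the sources used here do not say how reads that match several copies were counted. MT1X also overlaps a gene of the same strand over 18.1% of its exon sequence. Of all 36 tested members of the list, antioxidant genes included, 8 rose and 11 fell, and 5 and 11 without MUC1shRNA 1. HMOX1, heme oxygenase, stood at 101, 100.2 and 136 CPM with CshRNA and 53.3, 67 and 50.8 CPM with MUC1shRNA (-0.98, SE 0.13), and the glutathione transferase GSTM3 at 48.1, 48.2 and 50.7 CPM with CshRNA and 27.5, 29.5 and 27.7 CPM with MUC1shRNA (-0.79, SE 0.06).

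Metallothionein promoters are known for metal response elements, which the zinc-sensing factor MTF1 binds and whose core reads TGCACNC or TGCGCNC. The promoters of MT2A and MT1X are shown because both genes rose, with each core on either strand in capitals. Both come from RefSeq on GRCh38.p14, from 250 bases before to 50 after the start, 5′ to 3′ on the plus strand of chromosome 16 (MT2A at 56608334 to 56608633 and MT1X at 56682220 to 56682519).
MT2A: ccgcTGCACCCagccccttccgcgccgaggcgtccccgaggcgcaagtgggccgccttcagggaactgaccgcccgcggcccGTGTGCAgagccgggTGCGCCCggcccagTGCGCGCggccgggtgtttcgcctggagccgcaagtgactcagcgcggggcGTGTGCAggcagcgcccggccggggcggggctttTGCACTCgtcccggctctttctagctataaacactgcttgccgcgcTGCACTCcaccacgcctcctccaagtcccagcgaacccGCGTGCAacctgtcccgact
MT1X: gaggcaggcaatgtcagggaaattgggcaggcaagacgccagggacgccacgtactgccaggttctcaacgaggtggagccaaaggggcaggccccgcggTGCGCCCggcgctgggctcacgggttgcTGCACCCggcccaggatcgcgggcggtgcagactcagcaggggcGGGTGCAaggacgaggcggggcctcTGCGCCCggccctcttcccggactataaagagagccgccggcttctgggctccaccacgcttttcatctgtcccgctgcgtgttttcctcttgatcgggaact
MT2A held 8 such cores and MT1X held 4. Of all 27305 promoters 29.3% held at least 1, 0.593% at least 4, and 6 promoters at least 8. Binding at these letters was not measured.

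Mucin-type O-glycosylation, the process that decorates the outer subunit of MUC1, had 6 genes that rose and 10 that fell of 33, and 10 and 10 without CshRNA 3 and MUC1shRNA 2. Among the GalNAc transferases that start the chain, GALNT7 rose (41.8, 43.1 and 31.6 CPM to 61.6, 54.6 and 65.9 CPM, 0.65, SE 0.12), and GALNT16 and GALNT18 (3.04, 2.88 and 2.9 CPM to 0.806, 0.762 and 0.985 CPM, -1.79, SE 0.20) fell. GCNT1, which branches the chain into core 2 structures, fell from 33.3, 33.2 and 26.4 CPM to 15.6, 12.9 and 15.8 CPM (-1.07, SE 0.12). C1GALT1, which makes the core 1 chain, was not past the test (0.25, edgeR adjusted p = 0.20) except without CshRNA 3 and MUC1shRNA 2 (0.21, edgeR adjusted p = 0.0016) or without a filter (0.26, edgeR adjusted p = 0.0017).

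G1 cell cycle genes (cyclins, CDKs and their inhibitors) rose in 6 (18.2%) and fell in 4 (12.1%) of 33 cases, against 16.8% and 16.5% of all tested genes. They rose in 10 and fell in 8 without CshRNA 3 and MUC1shRNA 2, in 5 and 7 without CshRNA 2 and in 8 and 7 without MUC1shRNA 2. CDKN1A, the inhibitor p21, stood at 10.1, 9.49 and 11.6 CPM with CshRNA and 18.4, 19 and 18.5 CPM with MUC1shRNA, a log2 fold change of 0.84 ± 0.10 (SE, adjusted p = 2.2e-04 by edgeR), and MDM2, the ubiquitin ligase of p53, at 39.97, 40.02 and 36.5 CPM with CshRNA and 74.7, 72.2 and 78.9 CPM with MUC1shRNA (0.95, SE 0.06). CDKN2B, or p15, rose (0.45, SE 0.09), while CCNE1 (-0.42, SE 0.09), E2F4 (-0.46, SE 0.09) and RBL1 (-0.46, SE 0.06) fell. CCND1, or cyclin D1, was not past the test (0.18, edgeR adjusted p = 0.099) except without MUC1shRNA 2 (0.27, edgeR adjusted p = 0.0069), without that library and CshRNA 3 (0.26, edgeR adjusted p = 7.2e-04) or without a filter (0.19, edgeR adjusted p = 0.039). BCL2 family and caspase genes rose in 9 and fell in 5 of 33, in 5 and 4 without MUC1shRNA 1, in 6 and 3 without MUC1shRNA 3 and in 8 and 3 without CshRNA 1. The pro-apoptotic BBC3, or PUMA, rose (4.33, 3.61 and 4.21 CPM to 6.64, 7.62 and 6.4 CPM, 0.76, SE 0.14), as did CASP6 (0.78, SE 0.14), and the pro-apoptotic BID (81.2, 79.1 and 82.6 CPM to 58.8, 54.7 and 56.3 CPM, -0.52, SE 0.06) and BNIP3 (-0.44, SE 0.07) fell.

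Changed genes were not spread evenly over the chromosomes. On chromosome 4, 225 of 501 tested genes rose and 21 fell (44.9% and 4.19%), with a median log2 fold change of 0.26. Chromosomes 5 and 6 had medians of 0.18 each, with 228 of 616 and 228 of 648 genes that rose. The lowest medians were those of chromosome 22 (-0.15, 90 of 309 fell), chromosome 9 (-0.13, 169 of 555 fell) and chromosomes 16 and 19 (-0.11 each). Each of the 3 MUC1shRNA libraries lay above each of the 3 CshRNA libraries in the median of chromosomes 4, 5 and 6. The same medians in SUM149 were -0.07, -0.04 and -0.02. Within chromosomes the shift varied. On chromosome 5 the median was 0.09 before 80 Mb and 0.22 after it, and on chromosome 9 it was 0.01 before 40 Mb and -0.17 after it. On chromosome 3 it was -0.12 from 140 Mb on and -0.0029 before. Chromosome 8 alternated, with -0.14 before 60 Mb, 0.17 from 60 to 80 Mb and -0.22 from 140 Mb on. These positions were chosen after the values were seen. Of windows of 15 neighbouring tested genes, the highest median, 0.57, lay at GRCh38 chromosome 4, 139453232 to 144745271, where 10 of the 15 genes rose, among them INPP4B. The next lay at chromosome 5, 87267888 to 94618597 (0.55), which holds RASA1 and NR2F1, and at chromosome 12, 32339368 to 42590355 (0.52), which holds KIF21A. The lowest, -0.55, lay at chromosome 9, 136006537 to 136728184, where 12 of 15 fell, among them NOTCH1 and AGPAT2. The next were at chromosome 8, 20197367 to 22598025 (-0.48), which holds BMP1, and chromosome 22, 36467036 to 37693478 (-0.47). DNA copy number was not measured, and its part in these shifts was not tested.

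**Figure D3:**
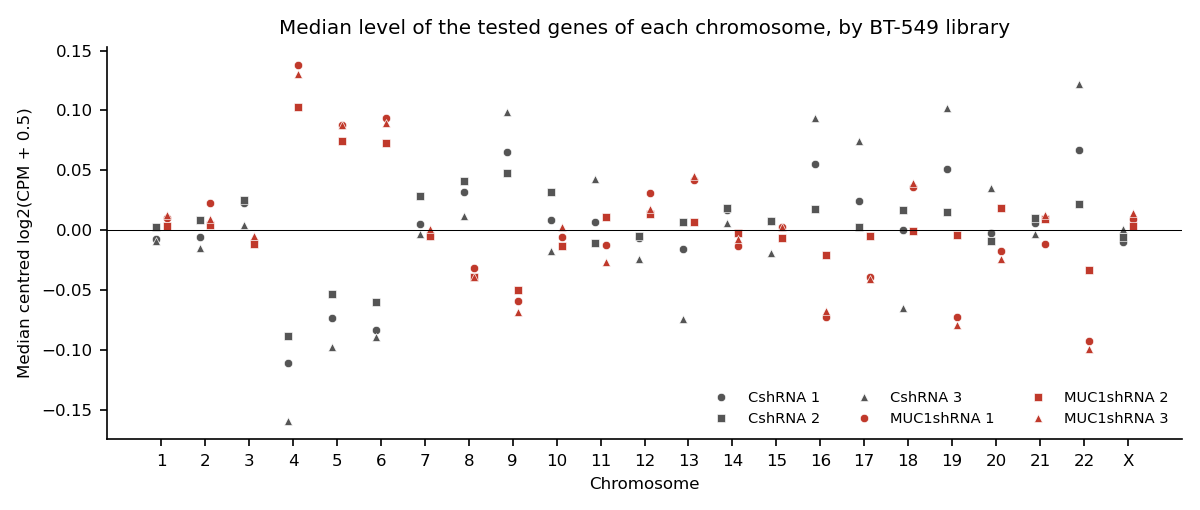
Median over the tested genes of each chromosome (horizontal axis) of the centred level, log2(CPM + 0.5) minus the gene's mean over the 6 libraries (vertical axis), with 1 point per library, grey for CshRNA and red for MUC1shRNA. On chromosome 4 the red points lie between 0.10 and 0.14 and the grey points between -0.16 and -0.09.

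The fold changes also followed the GC content of each gene's longest transcript. The median log2 fold change was 0.17 in the lowest of 10 equal groups of genes ordered by GC content and -0.20 in the highest. In the lowest group 28.8% rose and 5.01% fell, and in the highest group 6.83% rose and 30.3% fell. The libraries differed in this trend within their arms, since CshRNA 2 and MUC1shRNA 2 showed almost none and CshRNA 3 showed the steepest. With offsets that remove the GC trend from each library, 4562 genes were called, and the medians of chromosomes 4, 5 and 6 were 0.20, 0.13 and 0.16. Those of chromosomes 9, 16, 19 and 22 were -0.13, -0.05, -0.04 and -0.09. With the same offsets the part of chromosome 5 before 80 Mb had a median of -0.0019 and that after it 0.18, chromosome 9 after 40 Mb -0.16, chromosome 3 from 140 Mb on -0.18, and chromosome 8 -0.17 before 60 Mb, 0.08 from 60 to 80 Mb and -0.05 from 140 Mb on. The windows named above had 0.46, 0.37 and 0.43 for chromosomes 4, 5 and 12, and -0.40, -0.32 and -0.27 for chromosomes 9, 8 and 22. With these offsets the medians of matricellular and of TGF-beta and BMP genes were -0.06 and 0.10. Those of integrins, FOXO and insulin-PI3K genes and surface immune genes were 0.36, 0.16 and 0.18. Of the surface immune genes 13 rose and 6 fell. Whether the GC trend arose in the cells or in library preparation was not tested. Of protein-coding genes 36.1% were called, against 16.8% of lincRNA genes, 11.1% of antisense genes and 2.51% of processed pseudogenes. The share called rose with the mean level, from 23.3% in the lowest of 3 equal groups of genes to 39.8% in the highest.

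**Figure D4:**
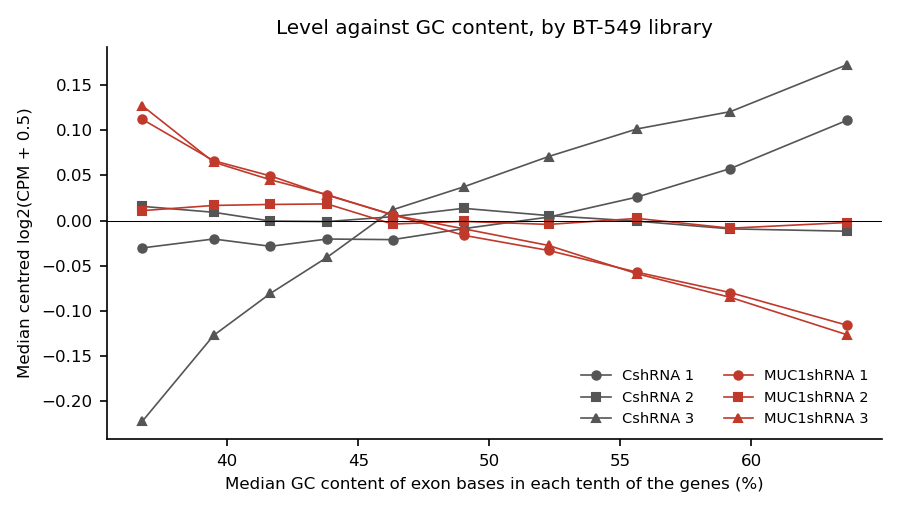
Median centred level, log2(CPM + 0.5) minus the gene's mean over the 6 libraries (vertical axis), in 10 equal groups of tested genes ordered by the GC content of their longest transcripts (horizontal axis, percent), with 1 line per library. MUC1shRNA 1 and 3 fall from 0.11 and 0.13 to -0.12 and -0.13, CshRNA 3 climbs from -0.22 to 0.17, and CshRNA 2 and MUC1shRNA 2 stay within 0.02 of 0.

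The response of BT-549 was set beside that of SUM149, the other line with MUC1shRNA and CshRNA, by testing the difference of both log2 fold changes over all 12 libraries. That difference passed the test for 6194 of 15649 genes (39.6%). Of the 4068 genes changed in BT-549 that were also tested in SUM149, 1343 changed in the same direction in both lines and 1204 in opposite directions. Among genes with at least 2-fold change in BT-549 and a mean of at least 5 CPM in 1 of the 4 groups, 288 passed the test of the difference, of which 103 changed the other way in SUM149, 72 of them higher in BT-549 and 31 lower. MAP2, a microtubule protein of neurons, stood at 10.01, 9.85 and 6 CPM with CshRNA and 41.7, 27.4 and 41.5 CPM with MUC1shRNA in BT-549 (2.11, SE 0.21), and fell in SUM149 from a mean of 17.1 CPM to 4.01 CPM (-2.08, SE 0.16). CHRM3, a muscarinic receptor, rose in BT-549 from 0.309, 0.184 and 0.339 CPM to 2.32, 1.96 and 1.6 CPM (2.78, SE 0.31) and fell in SUM149 from 29.03 to 4.99 CPM (-2.53, SE 0.12). PADI2 rose in BT-549, as above, and fell in SUM149 from 2.48 to 0.656 CPM (-1.89, SE 0.31). In the other direction, IL7R fell in BT-549 and rose in SUM149 from 2.59 to 15.5 CPM (2.59, SE 0.17). FAP, a membrane protease of activated fibroblasts, went from 9.85, 8.87 and 5.47 CPM to 3.27, 2.39 and 3.32 CPM in BT-549 (-1.42, SE 0.23), and in SUM149 it rose from 9.30 to 30.5 CPM (1.72, SE 0.11). GEM, a small GTPase, went from 8.72, 8.57 and 11.7 CPM to 3.94, 4.08 and 3.69 CPM in BT-549 (-1.31, SE 0.15), and in SUM149 it rose from 1.31 to 6.06 CPM (2.20, SE 0.24). For other genes the difference came from a response that was large in BT-549 and small in SUM149. ENG had a log2 fold change of -0.10 (SE 0.10) there, with means of 25.3 and 23.5 CPM, and MGLL one of -0.23 (SE 0.09), with means of 81.2 and 69.1 CPM. ADGRE5, an adhesion receptor of leukocytes and tumour cells, went from 4.23, 4.04 and 3.24 CPM to 0.332, 0.0544 and 0.246 CPM in BT-549 (-4.11, SE 0.34) and stood at 35.9 CPM in both arms of SUM149.

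**Figure D5:**
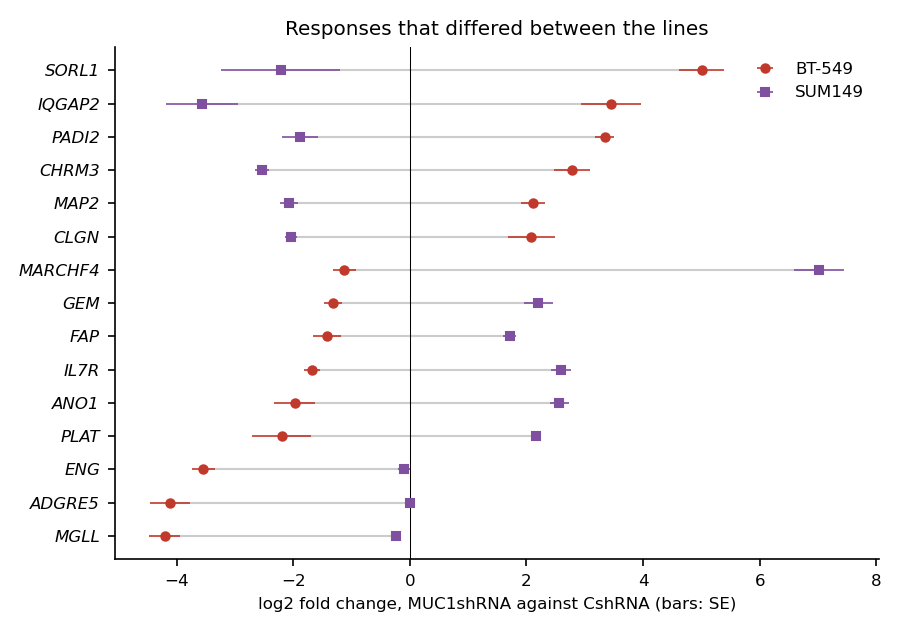
Log2 fold change, MUC1shRNA against CshRNA, with its SE (horizontal axis) in BT-549 (red circles) and SUM149 (purple squares) for the genes with the largest differences between the lines that were tested in both (vertical axis). The genes in the middle of the plot changed in opposite directions, and ENG, ADGRE5 and MGLL lie at -3.54, -4.11 and -4.20 in BT-549 but between -0.23 and 0.00 in SUM149.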

How the data were processed

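RNA was sequenced from 12 cultures, 6 of them BT-549. The deposited table holds raw counts per gene for each library, made by the authors. Per the submitters' processing notes, CASAVA 1.8.2, STAR 2.7.0, DESeq2 1.24.0 and GRCh38.p7 were used, with no role stated. The counting program, annotation and use of strand were not given in the sources used here, and antisense pairs and close copies cannot be separated. Of 57992 gene rows used, 57388 matched GENCODE 29 (GRCh38), which gave coordinates, GC content of the longest transcript and exon overlap.

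Groups were taken from the labels. Counts of the 6 BT-549 libraries were filtered with filterByExpr, scaled by TMM and tested with edgeR 4.0.16 (quasi-likelihood test, Benjamini-Hochberg adjustment over all tested genes, threshold 0.05, R 4.3.3). The difference between lines was an interaction over 12 libraries, and genes named for it had to pass that test. Total counts per library set the precision, and low genes carry larger SEs.

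Genes were named by rule: MUC1, the 12 largest fold changes and 8 largest CPM changes in each direction (averaging at least 5 CPM in 1 arm, with no overlap between arms and a sum of 10 or more counts in both), up to 4 called members in each direction (at least 2 CPM) and the preset anchors of each of 41 gene lists, and the leading differences between lines. Of these, genes whose call was lost when 1 BT-549 library was left out were left to the counts, a choice made after their values were seen, and some genes are not reported here. ID1, ID3, FOS, MT1E, MT1X, MT1M, MT1F and RPS2 were added after their values were seen. The members and lists were chosen with earlier results of these data known. Alternatives were DESeq2 1.42.0, limma-voom (limma 3.58.1), other scalings and filters, a fit of all 12 libraries, GC offsets, a replicate block, a 1.5-fold threshold and leaving out libraries.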

Additional observations from a re-analysis of the deposited data

Results flagged for a closer look

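The naming rule took 20 genes for the difference between the responses of BT-549 and SUM149. Passing the interaction test was a condition of that rule. Differences are BT-549 minus SUM149 on the log2 scale, with edgeR adjusted p-values.

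Among genes that rose in BT-549 and fell in SUM149, IQGAP2, a scaffold protein, differed by 7.03 (SE 1.01, edgeR adjusted p = 6.3e-05), CHRM3 by 5.33 (SE 0.28, edgeR adjusted p = 5.0e-09), MAP2 by 4.19 (SE 0.31, edgeR adjusted p = 9.5e-08), PADI2 by 5.23 (SE 0.38, edgeR adjusted p = 8.7e-08) and CLGN, an endoplasmic reticulum chaperone, by 4.13 (SE 0.34, edgeR adjusted p = 3.0e-07). Among genes that fell in BT-549 and rose in SUM149, the difference was -4.34 (SE 0.42, edgeR adjusted p = 1.5e-06) for PLAT, the tissue plasminogen activator, and -4.52 (SE 0.38, edgeR adjusted p = 3.6e-07) for the chloride channel ANO1. It was -4.25 (SE 0.23, edgeR adjusted p = 5.2e-09) for IL7R, -3.12 (SE 0.27, edgeR adjusted p = 4.9e-07) for FAP and -3.49 (SE 0.28, edgeR adjusted p = 2.2e-07) for GEM. Some of these genes were low in BT-549. The means with CshRNA and MUC1shRNA there were 0.170 and 1.98 CPM for IQGAP2 and 0.287 and 1.29 CPM for CLGN. For PLAT they were 0.831 and 0.179 CPM, and for ANO1 0.995 and 0.249 CPM.

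The largest differences in the direction of the BT-549 rise were 9.75 (SE 2.7, edgeR adjusted p = 0.012) for PCDH19 and 9.40 (SE 2.40, edgeR adjusted p = 0.0059) for UBBP4, a ubiquitin pseudogene whose reads may be shared with the ubiquitin genes. PCDH19 had no count in the SUM149 MUC1shRNA libraries, so its fitted value depends on the prior count. UBBP4 overlapped between the arms in BT-549, with 0.464, 0.612 and 0.726 CPM against 29.3, 0.381 and 31.5 CPM, and its BT-549 call was lost with limma-voom (3.56, limma adjusted p = 0.34). SORL1, a sorting receptor, differed by 7.23 (SE 1.59, edgeR adjusted p = 0.0021), BMP7 by 6.17 (SE 2.07, edgeR adjusted p = 0.028) and ADGRL3 by 5.92 (SE 0.60, edgeR adjusted p = 2.2e-06). The largest in the direction of the fall were -8.14 (SE 0.49, edgeR adjusted p = 1.4e-08) for the ubiquitin ligase MARCHF4, -4.09 (SE 0.32, edgeR adjusted p = 1.8e-07) for ADGRE5 and -3.97 (SE 0.91, edgeR adjusted p = 0.005) for the matrix protein ADAMTSL1. Most of the MARCHF4 difference was a rise in SUM149, from a mean of 0.051 to 7.21 CPM (7.02, SE 0.43). In BT-549 MARCHF4 went from a mean of 3.35 to 1.52 CPM (-1.13, SE 0.20). ADAMTSL1 had a log2 fold change of -1.19 in BT-549, and its SUM149 means were 0.016 and 0.161 CPM. MGLL and ENG differed by -3.95 (SE 0.28, edgeR adjusted p = 6.5e-08) and -3.42 (SE 0.22, edgeR adjusted p = 2.4e-08). PCDH19, UBBP4, BMP7, ADGRL3 and ADAMTSL1 did not pass the count filter in SUM149 alone and were not tested in that line. Several of these differences rested on single SUM149 libraries. That of BMP7 was -2.29 without SUM149 CshRNA 3 (edgeR adjusted p = 0.19), and without SUM149 MUC1shRNA 1, 2 or 3 it missed the threshold at 7.14, 5.64 and 6.10 (edgeR adjusted p = 0.059, 0.078 and 0.078). Without SUM149 CshRNA 3, PCDH19 differed by 2.91 (edgeR adjusted p = 1). UBBP4 differed by 5.81 without SUM149 CshRNA 2 (edgeR adjusted p = 0.093) and ADAMTSL1 by -3.53 without SUM149 MUC1shRNA 1 (edgeR adjusted p = 0.058). With limma-voom, BMP7, PCDH19 and UBBP4 missed the threshold (limma adjusted p = 0.49, 0.087 and 0.37).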

How the results depend on the processing

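Counts of changed genes stayed within 1.5 times of 4398 under other scalings, filters and tools (3821 with DESeq2 to 4854 without a filter), but 499 genes (290 higher, 209 lower) passed against a 1.5-fold threshold. Upper-quartile scaling called 2104 higher and 2327 lower. With a filter of 5 CPM in 3 libraries, 257 genes changed at least 2-fold, against 625. Leaving out 1 library gave 2716 to 4470 changed genes, 1379 to 2286 higher and 1337 to 2184 lower, with the lowest values without MUC1shRNA 1. The difference between lines was called for 5508 to 6420 genes in such fits. Of 326 genes that the naming rule took and the test called, 56 lost the call without 1 library. Such genes were left out of the text, so the calls printed in BT-549 kept their side of the threshold by choice, and this is no sign of stability. Against the 1.5-fold threshold 106 of the 219 printed calls were lost, in the fit of all 12 libraries 6 and with limma-voom 1 (UBBP4). Log2 fold changes not past the test changed sign for CCN1 (-0.0014 without MUC1shRNA 1, up to 0.15 in such fits), ID3 (-0.79 without MUC1shRNA 2, up to 1.43, and past the test without a filter at 0.36, edgeR adjusted p = 0.0029) and, with GC offsets, ERBB2 (0.041) and MTA1 (0.069). The difference between lines for BMP7 turned to -2.29 without SUM149 CshRNA 3 and reached 7.14 without SUM149 MUC1shRNA 1. The cause was not tested. Deviations from the arm means correlated at 0.10, -0.25 and -0.20 between libraries numbered 1, 2 and 3, and at 0.33 between MUC1shRNA 2 and CshRNA 3. The labels do not say whether equal numbers share a culture or day, and these correlations cannot settle it. With a replicate block 2951 genes were called, 1446 of them lower. Genes under about 1 CPM were limited by depth.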
